A study of Mus musculus with 4 samples.

Results

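Kinetochore and centromere genes were examined in sorted mouse pancreatic β-cells from animals labelled Bmal1KO, compared with animals labelled Bmal1+/-, the heterozygous genotype. The members are 43 listed genes, found by requiring that a row of the deposited count table carry the listed symbol and hold at least 15 counts over the 4 libraries. By this rule 42 of the 43 were found, among 23420 rows in all, and their totals ran between 463 and 14509 counts. Cenpu has no row under that symbol; a row under its older symbol Mlf1ip was not counted as a member. Each genotype had 2 libraries, made from RNA of FACS-sorted cells with a SMART-Seq v4 kit for low input. Animals of both genotypes carried DTA, the toxic A chain of diphtheria toxin, and all had received doxycycline for 10 days. The cells measured would thus be β-cells left after ablation, though loss of β-cells was not measured here. The labels name neither the promoter that drives DTA, nor the age of the animals, nor how many animals a library holds. P-values therefore measure library-to-library spread, and how much of it is technical is not known.

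The kinetochore is the protein assembly that ties a chromosome to spindle microtubules during cell division. It is built on the centromere, where the histone variant CENP-A marks the chromatin and a constitutive network of CENP proteins binds it. An outer layer, made of KNL1, the MIS12 complex and the NDC80 complex, grips the microtubule, while the chromosomal passenger complex corrects faulty attachments and the spindle checkpoint delays anaphase until all are sound. Many of these genes are transcribed mainly in late S phase, G2 and mitosis, so their mRNA is low in resting adult tissue. Adult β-cells divide rarely, and surviving β-cells can re-enter division after ablation.

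The libraries held 31056116 to 38020488 counts, and every member had at least 17 counts in each of them. Arntl, which encodes BMAL1, had 2490 and 2101 counts in the KO-labelled libraries, against 892 and 495 counts in the Het-labelled libraries (log2 fold change 1.89, SE 0.24, edgeR adjusted p = 0.0175). RNA of the targeted gene was thus higher under the KO label, and gene counts do not show whether a deleted part is missing, so groups are named by their labels and each direction is that of the label. Insulin transcripts were abundant throughout, with Ins2 at 194550 and 168848 CPM in the KO-labelled and 151722 and 187302 CPM in the Het-labelled libraries. Of the 7 listed β-cell markers 0 passed, and the groups overlapped for 3. For the other 4, Ins1, Nkx6-1, Mafa and Pdx1, both KO-labelled libraries lay below both Het-labelled ones, as for 23.8% of all genes tested. Ins1 was at 26733 and 26716 CPM under the KO label, against 30299 and 39253 CPM under the Het label. Summed markers of stromal, immune, acinar and endothelial cells were higher in both KO-labelled libraries, while those of duct cells were lower. The summed level of 12 stromal markers was 170 and 428 CPM in KO-labelled libraries 1 and 2, against 69.98 and 27.9 CPM in Het-labelled libraries 1 and 2. The 14 immune markers summed to 327 and 871 CPM under the KO label and to 249 and 267 CPM under the Het label, and the 13 acinar markers to 227 and 101 CPM against 73.7 and 25.2 CPM. The 10 endothelial markers summed to 42.2 and 22.5 CPM under the KO label and to 15.3 and 12.1 CPM under the Het label. The 9 duct markers summed to 1008 and 956 CPM under the KO label and to 1234 and 1312 CPM under the Het label, with 0 of 8 tested passing. Single duct markers were split, with a lower fitted level in 4 of the 8 and a higher one in 4. Krt7, a large part of the sum, was at 368 and 397 CPM under the KO label, against 567 and 663 CPM. Sox9 was at 6.42 and 6.00 CPM under the KO label, against 1.21 and 2.48 CPM. The other endocrine lists were at 2912 and 4534 CPM (alpha), 614 and 1521 CPM (delta) and 1974 and 4008 CPM (PP) under the KO label, against 2686 and 3304, 1026 and 1114, and 1319 and 1046 CPM under the Het label; the groups overlapped for alpha and delta, and 1 of 5 alpha markers rose. Xist, of the inactive X chromosome, was at 8.68 and 38.8 CPM under the KO label, against 72.3 and 67.5 CPM under the Het label. The Y-linked gene Ddx3y was at 89.1 and 23.8 CPM against 20.5 and 12.1 CPM, and neither gene passed. Both had counts in every library, and they differed in opposite directions between the KO-labelled libraries. Of the genes tested in the first 4 lists, 5 of 9 stromal and 2 of 13 immune markers rose, and 0 of 12 acinar and 0 of 5 endothelial markers passed; Amy2a5 was at 0 in all libraries, and Pdgfra was at 0 in both Het-labelled libraries. Their part in the results below was not tested, and in bulk RNA fewer dividing cells and less RNA per dividing cell cannot be told apart.

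Kinetochore mRNA was lower in the KO-labelled libraries. Of the 42 members, 14 fell, 0 rose and 28 did not pass the test, which is 33.3% of the members, against 2.54% of all 14649 genes tested that were called in either direction, 1.34% lower and 1.2% higher (edgeR quasi-likelihood test, Benjamini-Hochberg adjusted p under 0.05 over all genes). At an unadjusted p under 0.05, 33 members were lower and 0 higher. No share of all genes is given at that unadjusted p, here or below, so these counts have no background. DESeq2 called 24 members lower and 0 higher, against 560 lower and 619 higher among all 14649 genes. With limma-voom 15 members were lower and 0 higher, against 219 lower and 164 higher among all genes. The fitted level was lower in 39 of 42 members, with a median log2 fold change of -1.58 (all genes tested, 0.024). Both KO-labelled libraries lay below both Het-labelled libraries for 39 members, which is 92.9%, against 23.8% of all genes tested; for Zwint both lay above (25.3% of all genes), and for Cenpb and Cenpc1 the groups overlapped. The members lie on 20 chromosomes. Summed over the members, the KO-labelled libraries held 528 and 562 CPM and the Het-labelled libraries 975.5 and 1089 CPM. The number of calls changed with the library left out, and the number of all genes called lower changed in the same order. Each such fit leaves a group without a replicate, so its counts say little about the members in particular. Without Het replicate 1, 9 members were called lower, and without Het replicate 2 edgeR called 0, with 24 lower and 0 higher at an unadjusted p under 0.05; 40 and 39 members still had a lower fitted level. Without KO replicate 2, 25 were called lower, and without KO replicate 1, 18.

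**Figure D1:**
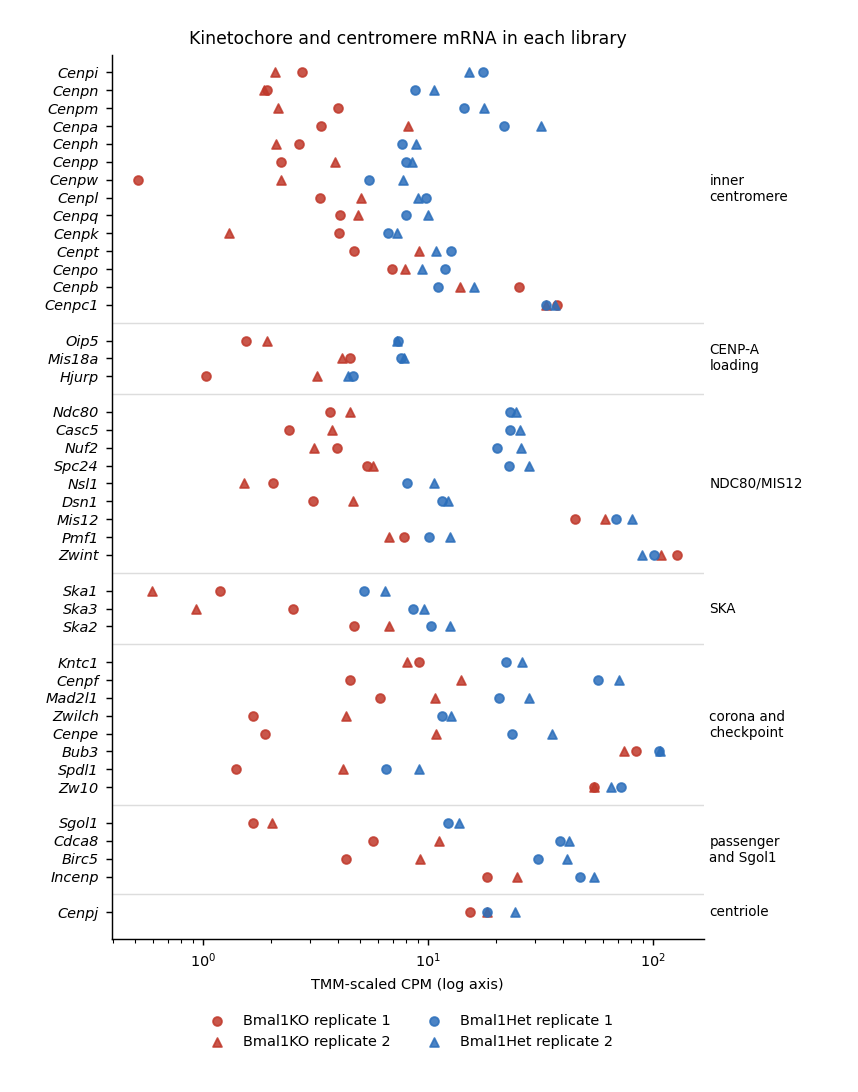
Level of each member in each library, as TMM-scaled CPM on a log axis, with rows grouped by role; red marks the KO-labelled and blue the Het-labelled libraries, and circles and triangles mark replicates 1 and 2. The red marks lie left of the blue ones for 39 of 42 members, and Zwint, Cenpb and Cenpc1 are the exceptions.

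The outer kinetochore held the members with the smallest p-values. NDC80 is a rod of 4 subunits that binds the microtubule directly. Ndc80 (GRCm38 chromosome 17, 71496100 to 71526857, minus strand), which encodes its microtubule-binding arm, was at 3.68 and 4.53 CPM in the KO-labelled libraries, against 23.1 and 24.6 CPM in the Het-labelled libraries (log2 fold change -2.54, SE 0.27, edgeR adjusted p = 0.0129). Nuf2, its coiled-coil partner, was at 3.96 and 3.12 CPM under the KO label and at 20.2 and 25.97 CPM under the Het label (-2.70, SE 0.30, edgeR adjusted p = 0.0134). Spc24, of the end that faces the centromere, was at 5.39 and 5.71 CPM under the KO label and at 23.0 and 28.0 CPM under the Het label (-2.20, SE 0.25, edgeR adjusted p = 0.0140). In all 3 subunits the groups stood far apart relative to the spread within them. Casc5 (GRCm38 chromosome 2, 119047119 to 119105501, plus strand), the older symbol of Knl1 and the scaffold that recruits checkpoint kinases, was at 2.41 and 3.75 CPM in the KO-labelled libraries, against 23.1 and 25.6 CPM in the Het-labelled libraries, the lowest log2 fold change of any member (-2.98, SE 0.32, edgeR adjusted p = 0.0129).

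The MIS12 complex joins the inner centromere to the outer layer, and its subunits differed in how far they moved. Nsl1 was at 2.04 and 1.53 CPM in the KO-labelled libraries, against 8.06 and 10.6 CPM in the Het-labelled libraries, and fell (-2.38, SE 0.41, edgeR adjusted p = 0.0343), a call lost without Het replicate 1. Dsn1 was at 3.08 and 4.65 CPM under the KO label and at 11.6 and 12.3 CPM under the Het label and did not pass (-1.63, SE 0.35, edgeR adjusted p = 0.0682). The other subunits of the complex had smaller differences that did not pass. Pmf1 was at 7.79 and 6.71 CPM under the KO label, against 10.1 and 12.5 CPM under the Het label (-0.64, 95% interval -1.36 to 0.078), and Mis12 at 44.9 and 61.3 CPM against 68.6 and 80.9 CPM (-0.49, 95% interval -0.96 to -0.025). For Pmf1 and Mis12 both KO-labelled libraries lay below both Het-labelled ones, as for 23.8% of all genes tested. Zwint, whose product binds KNL1 and the dynein-recruiting RZZ complex at kinetochores and is known in rat brain as a partner of the exocytosis protein SNAP25, was at 127 and 108 CPM in the KO-labelled libraries, against 101 and 89.7 CPM in the Het-labelled libraries (0.31, 95% interval -0.058 to 0.68, edgeR adjusted p = 0.379). Of the 9 members of this outer class, 5 fell, 0 rose and 4 did not pass, and the median log2 fold change was -2.20. Differences between members were not tested.

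**Figure D2:**
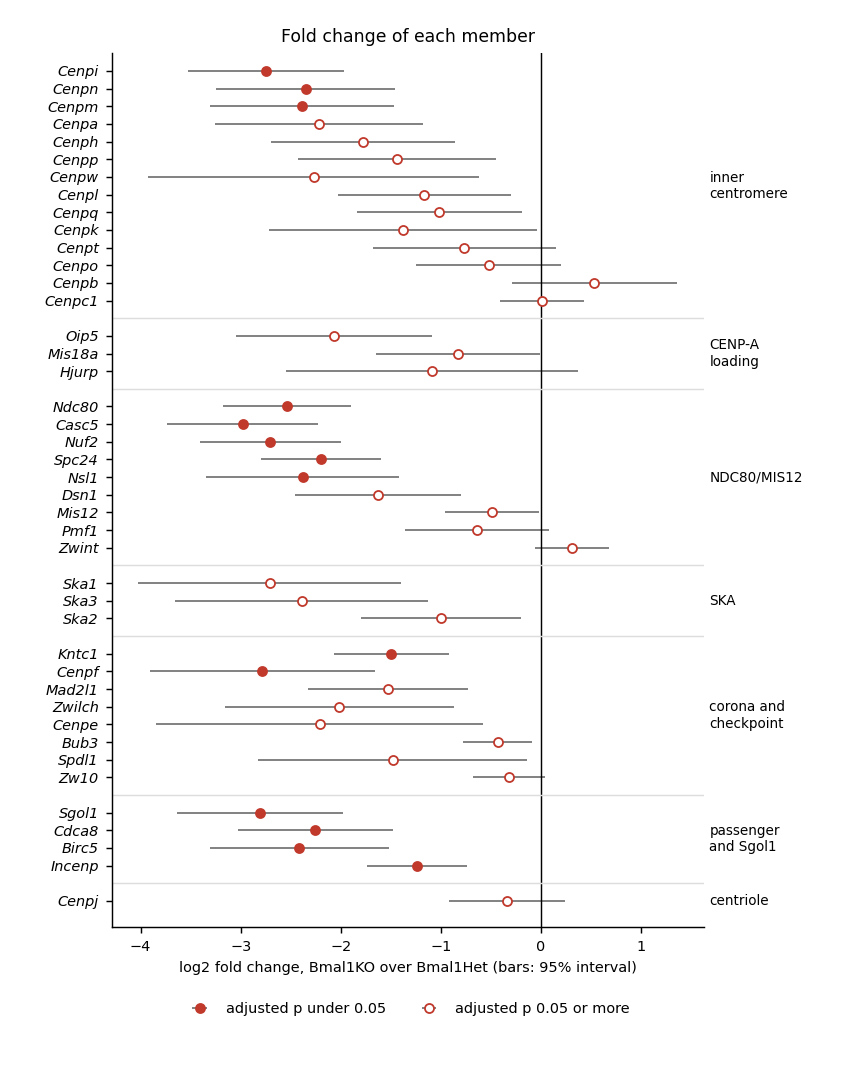
Log2 fold change of each member, KO-labelled over Het-labelled libraries, with its unadjusted 95% interval from edgeR's fit; filled circles are members with an adjusted p under 0.05. The 14 filled circles lie between -2.98 and -1.24, and all 4 members of the passenger group are filled.

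The chromosomal passenger complex and its partner at the centromere fell in full, 4 of 4 members. Incenp encodes the scaffold that activates Aurora B, Birc5 the survivin subunit that docks on histone H3, and Cdca8 the borealin subunit. Birc5 was at 4.32 and 9.24 CPM in the KO-labelled libraries, against 30.9 and 41.5 CPM in the Het-labelled libraries (-2.41, SE 0.38, edgeR adjusted p = 0.0265; -3.07 without KO replicate 2). Cdca8 was at 5.69 and 11.2 CPM under the KO label and at 38.6 and 42.2 CPM under the Het label (-2.25, SE 0.33, edgeR adjusted p = 0.0221). For both, KO replicate 1 was the lowest library. Incenp had the highest level of the class, at 18.4 and 24.8 CPM in the KO-labelled libraries, against 47.5 and 54.5 CPM in the Het-labelled libraries, and the smallest difference (-1.24, SE 0.21, edgeR adjusted p = 0.0343), which did not pass without Het replicate 1. Sgol1 (GRCm38 chromosome 17, 53674786 to 53689333, minus strand), the older symbol of Sgo1, encodes shugoshin, which shields centromeric cohesin from early removal. It was at 1.67 and 2.03 CPM in the KO-labelled libraries, against 12.3 and 13.7 CPM in the Het-labelled libraries (-2.81, SE 0.35, edgeR adjusted p = 0.0160). Without Het replicate 2, 0 of these 4 passed in edgeR's test.

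In the inner centromere, 3 of 14 members fell, 0 rose and 11 did not pass, with a median log2 fold change of -1.41. Cenpi, a subunit of the constitutive network that helps bring in new CENP-A, lies on chromosome X and was at 2.77 and 2.09 CPM in the KO-labelled libraries, against 17.6 and 15.2 CPM in the Het-labelled libraries (-2.75, SE 0.33, edgeR adjusted p = 0.0150). Cenpn, whose product reads the CENP-A nucleosome, was at 1.92 and 1.87 CPM under the KO label and at 8.73 and 10.7 CPM under the Het label (-2.35, SE 0.38, edgeR adjusted p = 0.0283). Cenpm, the partner of CENP-I in the network, was at 3.99 and 2.15 CPM under the KO label and at 14.5 and 17.8 CPM under the Het label (-2.39, SE 0.39, edgeR adjusted p = 0.0291). Without Het replicate 1 the call was left to Cenpi alone among the 14. Cenpa itself, the centromeric histone, was at 3.35 and 8.15 CPM in the KO-labelled libraries, against 21.8 and 31.7 CPM in the Het-labelled libraries, and narrowly missed the threshold (-2.22, SE 0.44, edgeR adjusted p = 0.0527). It passed under 9 of 14 alternative settings. Cenph, another subunit of the network, was at 2.68 and 2.12 CPM under the KO label and at 7.67 and 8.81 CPM under the Het label (-1.78, edgeR adjusted p = 0.0700), and Cenpp at 2.22 and 3.87 CPM against 8.03 and 8.51 CPM (-1.44, edgeR adjusted p = 0.146). For Cenph and Cenpp both KO-labelled libraries lay below both Het-labelled ones, as for 23.8% of all genes tested.

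The remaining inner members had wider intervals or smaller differences. Cenpw, Cenpk, Cenpl and Cenpq had log2 fold changes of -2.27, -1.38, -1.17 and -1.02 with 95% intervals below 0, Cenpt and Cenpo of -0.77 and -0.52 with intervals that held 0, and none of the 6 passed. Cenpb and Cenpc1 were the members of this class without a lower level. Cenpc1, which encodes CENP-C, the protein that links CENP-A nucleosomes to the MIS12 complex, was at 37.3 and 33.4 CPM in the KO-labelled libraries, against 33.3 and 36.9 CPM in the Het-labelled libraries. Its log2 fold change of 0.010 (95% interval -0.41 to 0.43) turned to -0.0970 without KO replicate 1 and to -0.0668 without Het replicate 1. Cenpb, a protein derived from a transposase that binds a motif in centromeric satellite DNA, was at 25.3 and 13.9 CPM under the KO label, against 11.1 and 16.0 CPM under the Het label (0.53, 95% interval -0.29 to 1.35). Exons of Cenpp, Cenpo, Cenpk and Cenpq overlap another protein-coding gene over 12.3%, 19.0%, 4.45% and 3.65% of their length, and counting without strand cannot separate the partners. Such overlap was also annotated for Oip5 (9.67% of exon length), Mis12 (7.69%), Zwilch (5.93%), Cdca8 (4.48%) and Ska3 (2.88%). The row named Mlf1ip, the older symbol of Cenpu, had 55 and 32 counts in the KO-labelled libraries, against 165 and 181 counts in the Het-labelled libraries (-1.86, edgeR adjusted p = 0.139).

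None of the 3 genes that load CENP-A onto centromeres passed edgeR's test at an adjusted p under 0.05. Oip5, which encodes a subunit of the MIS18 licensing complex, was at 1.55 and 1.94 CPM in the KO-labelled libraries, against 7.33 and 7.29 CPM in the Het-labelled libraries (-2.07, SE 0.42, edgeR adjusted p = 0.0552). Mis18a, of the same complex, was at 4.51 and 4.15 CPM under the KO label and at 7.57 and 7.84 CPM under the Het label (-0.83, SE 0.35, edgeR adjusted p = 0.288). Hjurp, the chaperone that carries new CENP-A, was at 1.04 and 3.22 CPM under the KO label and at 4.65 and 4.42 CPM under the Het label (-1.09, SE 0.62, edgeR adjusted p = 0.440). All 3 had both KO-labelled libraries below both Het-labelled ones, as had 23.8% of all genes tested. DESeq2 called Oip5 lower, along with 560 lower and 619 higher among all 14649 genes. The SKA complex, which helps NDC80 hold on to shortening microtubules, also had no call. Ska1 was at 1.19 and 0.593 CPM in the KO-labelled libraries, against 5.22 and 6.48 CPM in the Het-labelled libraries (-2.71, SE 0.56, edgeR adjusted p = 0.0596), from 39 and 19 counts against 202 and 214 counts. Ska3 was at 2.53 and 0.937 CPM under the KO label and at 8.55 and 9.66 CPM under the Het label (-2.39, SE 0.54, edgeR adjusted p = 0.0747). Ska2 was at 4.69 and 6.71 CPM under the KO label and at 10.3 and 12.5 CPM under the Het label (-0.9997, SE 0.34, edgeR adjusted p = 0.198). DESeq2 called Ska1 and Ska3 lower, against the same number of calls over all genes.

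At the corona, the outermost layer where motors and checkpoint proteins gather, 2 of 8 members fell and 6 did not pass. Cenpf, a large coiled-coil protein of the corona, was at 4.51 and 13.96 CPM in the KO-labelled libraries, against 56.8 and 70.4 CPM in the Het-labelled libraries (-2.78, SE 0.48, edgeR adjusted p = 0.0342; -3.82 without KO replicate 2). Kntc1, the rod subunit of the RZZ complex that recruits dynein, was at 9.10 and 8.09 CPM under the KO label and at 22.2 and 26.3 CPM under the Het label (-1.495, SE 0.24, edgeR adjusted p = 0.0287), a call lost without Het replicate 1. Its partners in that complex differed less uniformly. Zwilch was at 1.67 and 4.31 CPM in the KO-labelled libraries, against 11.5 and 12.7 CPM in the Het-labelled libraries (-2.01, edgeR adjusted p = 0.0906). Zw10, which also takes part in membrane traffic between ER and Golgi, was at 54.8 and 54.6 CPM under the KO label and at 71.9 and 65.0 CPM under the Het label (-0.32, 95% interval -0.68 to 0.035, edgeR adjusted p = 0.346). Cenpe, the kinesin that carries chromosomes to the spindle equator, was at 1.89 and 10.9 CPM in the KO-labelled libraries, against 23.6 and 35.5 CPM in the Het-labelled libraries (-2.21, SE 0.69, edgeR adjusted p = 0.169). Its KO-labelled libraries lay far from each other. Mad2l1, the checkpoint protein that holds back the anaphase activator CDC20, was at 6.12 and 10.8 CPM under the KO label and at 20.7 and 28.1 CPM under the Het label (-1.53, edgeR adjusted p = 0.0716). Bub3, which docks the BUB kinases on KNL1, was at 83.8 and 74.3 CPM under the KO label and at 106 and 108 CPM under the Het label (-0.43, 95% interval -0.78 to -0.091, edgeR adjusted p = 0.193). Spdl1, the dynein adaptor spindly, had a log2 fold change of -1.48 and an edgeR adjusted p of 0.251. Cenpj carries a CENP name, yet its product builds centrioles; it was at 15.3 and 18.33 CPM under the KO label and at 18.33 and 24.4 CPM under the Het label (-0.34, 95% interval -0.92 to 0.24), with KO replicate 2 just below Het replicate 1.

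Further genes of the kinetochore and its checkpoint that are no members were taken from a textbook list of 33 symbols, of which 31 were in the table and tested. Of these 31, 6 fell, 0 rose and 25 did not pass in edgeR's test, and the median log2 fold change was -1.08; at an unadjusted p under 0.05, 18 were lower and 0 higher. DESeq2 called 15 of the 31 lower, against 560 lower among all 14649 genes. Without Het replicate 2 edgeR called 0 of the 31, with 13 lower and 1 higher at an unadjusted p under 0.05, and without KO replicate 1 or KO replicate 2 it called 10 or 13. Aurkb, the kinase of the passenger complex, was at 3.78 and 1.53 CPM in the KO-labelled libraries, against 25.05 and 30.2 CPM in the Het-labelled libraries (-3.38, SE 0.44, edgeR adjusted p = 0.0175). Bub1b, the checkpoint protein BUBR1, was at 7.98 and 10.1 CPM under the KO label and at 29.8 and 35.2 CPM under the Het label (-1.84, SE 0.24, edgeR adjusted p = 0.0175). Cdc20, which the checkpoint restrains, was at 10.1 and 20.2 CPM under the KO label and at 73.5 and 87.5 CPM under the Het label (-2.41, SE 0.33, edgeR adjusted p = 0.0175). The genes of this list with fold changes nearest 0 were Seh1l, a nuclear pore gene (0.053), and Mad2l1bp, which switches the checkpoint off (-0.065), and their groups overlapped.

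Spc25, the fourth subunit of NDC80, stood apart from its partners in level. It was at 303 and 284 CPM in the KO-labelled libraries, against 656 and 707 CPM in the Het-labelled libraries, and fell (-1.22, SE 0.14, edgeR adjusted p = 0.0134). Per kilobase of exon, its level was 94.9 and 89.1 CPM under the KO label and 206 and 222 CPM under the Het label. On the same scale Spc24 had a level of 2.09 and 2.22 CPM per kilobase under the KO label and 8.94 and 10.9 under the Het label. Ndc80 had a level of 0.567 and 0.697 CPM per kilobase under the KO label and 3.56 and 3.79 under the Het label, and Nuf2 of 0.624 and 0.492 under the KO label and 3.18 and 4.10 under the Het label. Counts in the rows of subunits of 1 complex thus differed widely per length within a library. Whether all counts in the Spc25 row come from Spc25 transcripts, and not from its neighbour G6pc2, was not tested. Among the members, the highest mean levels per kilobase under the Het label were those of Mis12 (24.9 ± 2.90 CPM), Zwint (21.4 ± 1.73), Zw10 (17.9 ± 1.26) and Bub3 (15.2 ± 0.188; SD, n = 2), none of which passed the test. The mean levels of Mis12 and Zwint differed by less than the sum of their SDs, as did those of the neighbours Incenp and Birc5, Birc5 and Cenpm, and Cenpm and Spc24. The mean levels per kilobase of Mis12, Zwint, Zw10 and Bub3 under the KO label were 17.7 ± 3.87, 26.6 ± 3.03, 14.3 ± 0.0466 and 11.3 ± 0.962 CPM. The members that follow these in order of level under the Het label are Incenp, Birc5, Cenpm, Spc24 and Cdca8, each of which fell. Mean levels of these 5 were 1.64 to 4.99 CPM per kilobase under the KO label and 7.80 to 11.8 CPM per kilobase under the Het label. Among the lowest mean levels per kilobase under the KO label were those of Hjurp (0.255 ± 0.185 CPM), Cenpw (0.325 ± 0.285) and Ska1 (0.334 ± 0.157; SD, n = 2), which did not differ beyond their spread; under the Het label these were 0.544 ± 0.0194, 1.57 ± 0.382 and 2.19 ± 0.334 CPM.

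Promoter sequences were read because so many members lay on the same side of 0. Genes of G2 and mitosis often carry a CHR element (TTTGAA, or the variant TTTAAA) near their start site, through which the DREAM complex represses them in resting cells and the MuvB complex with B-MYB and FOXM1 drives them in dividing cells. A CCAAT box, bound by NF-Y, commonly lies upstream, and BMAL1 with CLOCK binds the E-box CACGTG. RefSeq promoters (GRCm38.p6, 250 bases before to 50 after the start site) were found for 37 of the 42 members; Spc24, Nsl1, Ska1, Zwilch and Incenp had no entry. A CHR hexamer on either strand was present in 21 of 37 members (56.8%), against 30.6% of 27025 genes with a promoter, and within 50 bases of the start site in 16 of 37 (43.2%), against 9.54%. CCAAT was present on either strand in 23 of 37 (62.2%), against 41.1% of all genes, and CACGTG in 1 of 37 (2.70%), against 8.09%. A CHR hexamer was in 7 of 11 members called lower (63.6%) and in 14 of 26 not called (53.9%). CCAAT was in 7 of 11 (63.6%) and 16 of 26 (61.5%). Whether these shares differ was not tested. Such matches are descriptions of letters in a window. The 250 bases before the start are given below for the first 5 members in order of p that hold a CHR hexamer there and extend into an annotated exon by no more than 30 bases, for Sgol1 as the holder of the E-box, chosen after its letters were seen, and for Cenpc1 as the member with the fold change nearest 0. Each is written 5′ to 3′ on the gene's own strand, and capitals mark the letters of the CHR hexamers, the CCAAT box and the E-box on either strand; a motif of the opposite strand appears as its reverse complement.
Birc5, chr11:117848987-117849236, plus strand: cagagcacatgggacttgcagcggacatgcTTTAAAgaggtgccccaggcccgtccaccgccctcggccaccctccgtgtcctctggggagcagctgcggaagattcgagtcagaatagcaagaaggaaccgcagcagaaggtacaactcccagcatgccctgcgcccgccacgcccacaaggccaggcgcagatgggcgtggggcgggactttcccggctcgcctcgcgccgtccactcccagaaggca
Cenpn, chr8:116921490-116921739, plus strand: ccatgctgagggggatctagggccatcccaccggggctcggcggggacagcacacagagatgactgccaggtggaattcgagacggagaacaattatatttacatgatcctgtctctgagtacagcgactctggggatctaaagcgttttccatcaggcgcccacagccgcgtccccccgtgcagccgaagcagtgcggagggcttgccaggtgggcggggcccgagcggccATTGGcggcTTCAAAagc
Kntc1, chr5:123749476-123749725, plus strand: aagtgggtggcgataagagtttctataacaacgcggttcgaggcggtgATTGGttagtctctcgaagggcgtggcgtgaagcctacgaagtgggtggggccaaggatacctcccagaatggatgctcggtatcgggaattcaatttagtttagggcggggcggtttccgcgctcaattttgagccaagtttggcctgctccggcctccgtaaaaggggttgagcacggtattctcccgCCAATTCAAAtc
Cenpf, chr1:189688087-189688336, minus strand: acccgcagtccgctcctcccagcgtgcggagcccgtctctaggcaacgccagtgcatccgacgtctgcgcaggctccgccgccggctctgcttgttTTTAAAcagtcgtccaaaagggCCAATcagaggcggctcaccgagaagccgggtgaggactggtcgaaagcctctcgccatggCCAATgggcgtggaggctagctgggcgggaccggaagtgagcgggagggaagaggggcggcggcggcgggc
Oip5, chr2:119618506-119618755, minus strand: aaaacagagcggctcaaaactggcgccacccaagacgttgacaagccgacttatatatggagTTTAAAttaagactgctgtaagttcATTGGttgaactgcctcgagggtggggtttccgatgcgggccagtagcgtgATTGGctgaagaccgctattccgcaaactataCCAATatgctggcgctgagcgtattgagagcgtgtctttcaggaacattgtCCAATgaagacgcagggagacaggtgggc
Sgol1, chr17:53689316-53689565, minus strand: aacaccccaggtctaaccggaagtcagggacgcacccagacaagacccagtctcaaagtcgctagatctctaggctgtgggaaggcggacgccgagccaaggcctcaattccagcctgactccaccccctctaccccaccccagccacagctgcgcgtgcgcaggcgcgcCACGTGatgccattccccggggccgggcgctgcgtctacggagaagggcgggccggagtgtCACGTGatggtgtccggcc
Cenpc1, chr5:86065584-86065833, minus strand: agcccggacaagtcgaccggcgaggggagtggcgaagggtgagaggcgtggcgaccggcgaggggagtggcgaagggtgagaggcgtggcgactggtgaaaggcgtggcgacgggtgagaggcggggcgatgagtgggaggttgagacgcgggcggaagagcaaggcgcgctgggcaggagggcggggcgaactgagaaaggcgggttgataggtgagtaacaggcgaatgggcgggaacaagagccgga
Counted from 0 at the first transcribed base, the CHR hexamer begins at -9 in Cenpn and at -8 in Kntc1, where it shares its first base with a CCAAT box. It begins at -220 in Birc5, -154 in Cenpf and -188 in Oip5. Cenpf has another that begins at the third transcribed base, and Oip5 has another that begins at 33. Sgol1 holds 2 copies of CACGTG, which begin at -80 and -19, and no CHR hexamer in the window. Cenpc1 has none of these motifs before its start, and a CHR hexamer that begins at 3 and a CCAAT box that begins at 14 after it. Zwint, with a log2 fold change of 0.31, holds a CHR hexamer that begins at -15, while Nuf2, at -2.70, holds none of these motifs in its window.

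**Figure D3:**
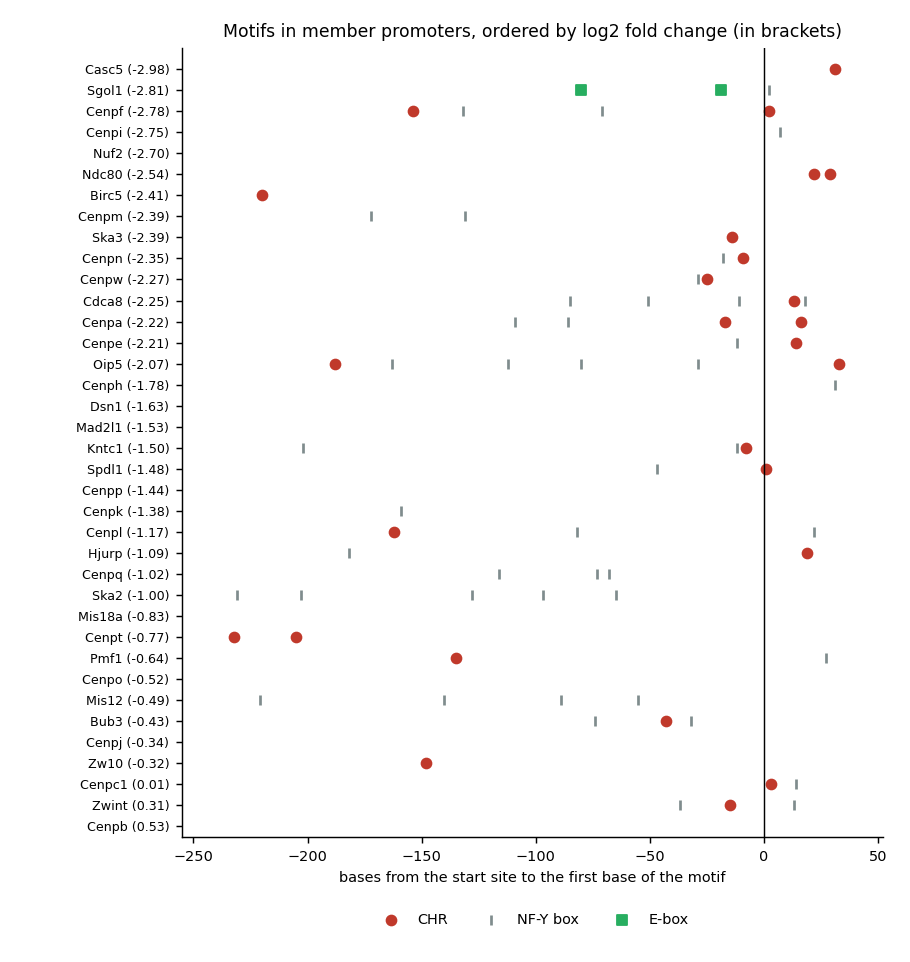
Distance from the start site (0) to the first base of each motif, in bases, for the first listed promoter of 37 members, ordered by log2 fold change (KO-labelled over Het-labelled, in brackets), with red circles for CHR hexamers, grey ticks for the NF-Y box and green squares for the E-box. CHR hexamers gather near the start site in 16 of 37 members, and the E-box is in Sgol1 alone.

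The ratio between replicates spanned a wider range of sizes under the KO label than under the Het label. The ratio of replicate 2 to replicate 1 ran between 0.326 and 5.76 over the 42 members under the KO label and between 0.793 and 1.505 under the Het label. Under the KO label 8 members were at least 2 times as high in replicate 2 and 3 were no more than 0.5 times as high; under the Het label 0 members were outside these limits on either side. Cenpe had 348 counts in KO replicate 2 against 62 counts in KO replicate 1, a scaled ratio of 5.76 (95% interval 4.38 to 7.67, exact binomial, counting error only). Cenpw, a histone-fold protein of the inner network, had 71 against 17 counts (ratio 4.28, interval 2.50 to 7.76), and Hjurp, Cenpf and Spdl1 had ratios of 3.11, 3.10 and 3.01. Zwilch, Cenpa and Birc5 followed with 2.57, 2.43 and 2.14. Members of the opposite pattern were Cenpk, with 42 counts in KO replicate 2 against 132 counts in KO replicate 1 (ratio 0.326, interval 0.225 to 0.465), Ska3 (0.371, interval 0.236 to 0.569) and Ska1 (0.4996, interval 0.273 to 0.886). Counting intervals of 19 members lay above 1 and of 8 members below 1 under the KO label, and of 24 members above and 5 below 1 under the Het label. Replicates thus differed beyond counting error for most members under both labels. Summed over genes, chi-square per degree of freedom was 63.9 for the KO label and 42.9 for the Het label. Genes with very high counts weigh most in that sum, so it does not describe genes at the members' counts. Counts of such intervals and ratios over all genes are not given, so those of the members are not shown to be particular to them.

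Markers of dividing cells also differed in this ratio. Ccnb2, Ccna2 and Cdk1, which act in G2 and mitosis, had ratios of KO replicate 2 to KO replicate 1 of 3.38, 3.33 and 3.15, and Top2a and Ccnb1 of 2.55 and 2.08. Mki67, a general marker of cycling cells, had a ratio of 1.57 under the KO label and of 1.59 under the Het label. Mcm2, Mcm3, Mcm5 and Pcna, which act at replication origins and forks, had ratios of 1.05, 1.07, 1.07 and 1.03. The same ratios under the Het label ran between 0.896 for Mcm3 and 1.59 for Mki67. Summed immune and stromal markers were also higher in KO replicate 2 than in KO replicate 1, as was Xist, and Ddx3y was lower, with the values given above. The part of these differences in the members' values was not tested.

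**Figure D4:**
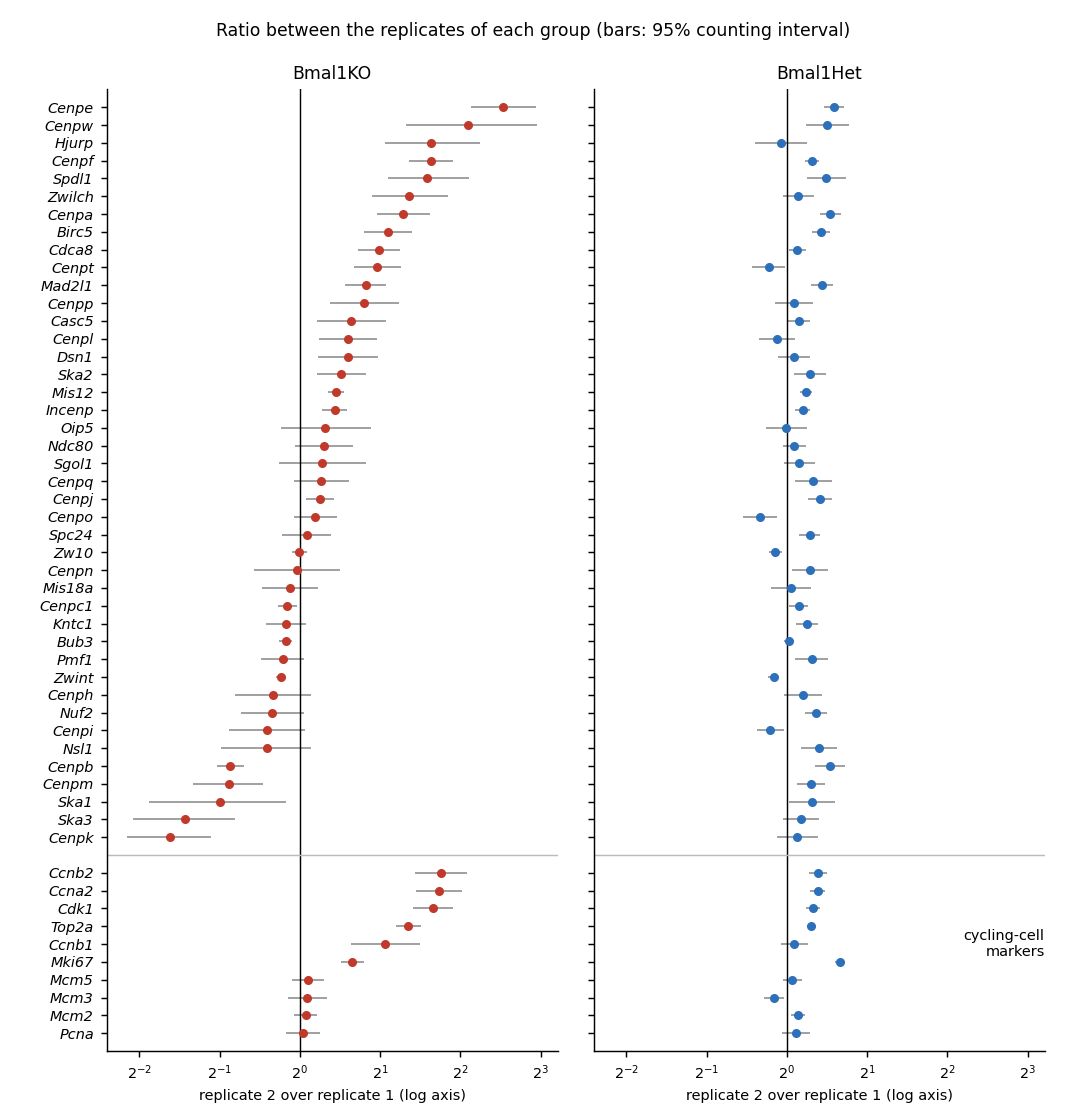
Ratio of replicate 2 to replicate 1 for each member and for 10 markers of cycling cells, on a log axis, in the KO-labelled libraries (left) and the Het-labelled libraries (right), with exact 95% counting intervals. Under the KO label the ratios spread between 0.326 and 5.76, and under the Het label those of the members lie between 0.793 and 1.505.

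The summed level of each class was also set against markers of dividing cells. The 10 markers, Mki67, Top2a, Cdk1, Ccnb1, Ccnb2, Ccna2, Pcna, Mcm2, Mcm3 and Mcm5, summed to 107 and 174 CPM in the KO-labelled libraries, against 500 and 629 CPM in the Het-labelled libraries, and 7 of the 10 fell. The passenger subunits Incenp, Birc5 and Cdca8 together summed to 28.4 and 45.3 CPM under the KO label, against 117 and 138 CPM under the Het label. As a percentage of the summed markers this was 26.6% and 26.1% under the KO label and 23.4% and 21.97% under the Het label. Ndc80, Nuf2 and Spc24 together were at 12.2% and 7.69% of the markers under the KO label and at 13.3% and 12.5% under the Het label. For the passenger subunits both KO-labelled values lay above both Het-labelled values, and for the NDC80 subunits both lay below. The SKA genes were at 7.88% and 4.74% of the markers under the KO label and at 4.81% and 4.56% under the Het label. The 14 inner centromere members, whose sum Cenpc1 and Cenpb lead under the KO label, were at 96.6% and 56.4% of the markers in the KO-labelled libraries, against 35.4% and 31.8% in the Het-labelled libraries. Corona and checkpoint members, whose sum Bub3 and Zw10 lead under the KO label, were at 153% and 104% under the KO label and at 63.8% and 56.5% under the Het label. Differences in these proportions were not tested.

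**Figure D5:**
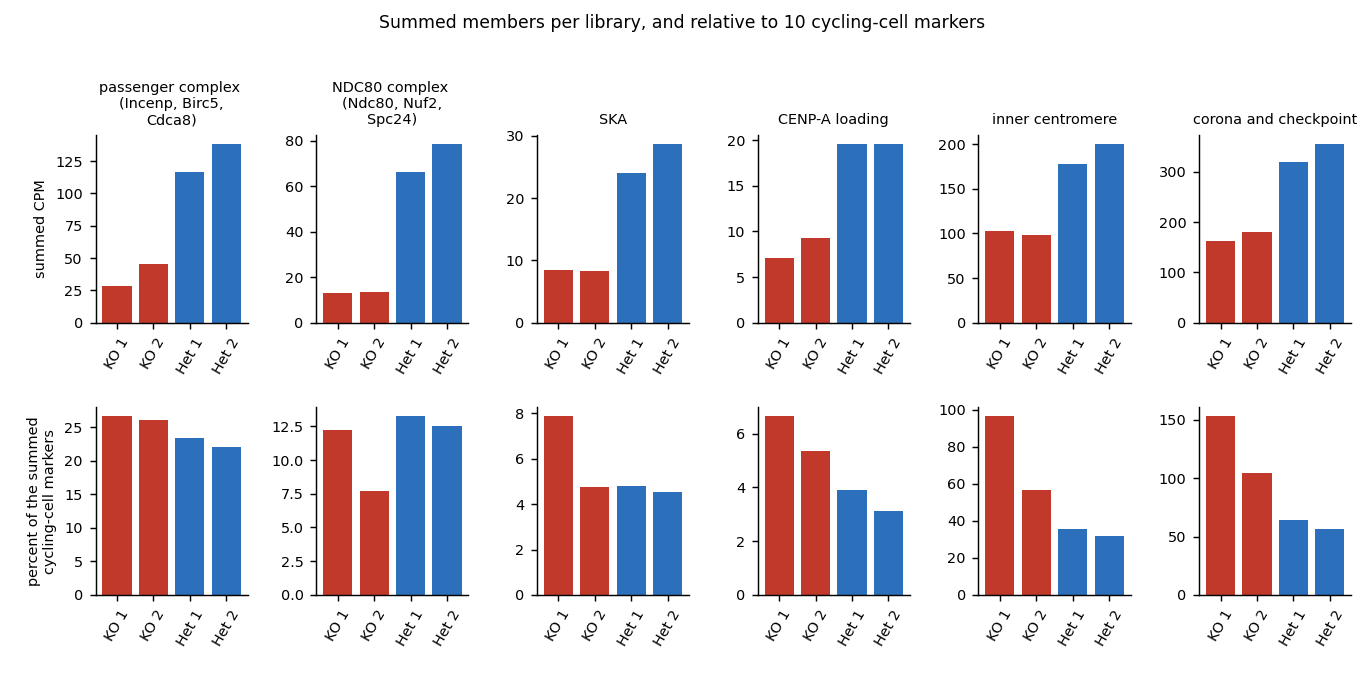
Summed CPM of 6 groups of members in each library (top, bars from 0) and the same sum as a percentage of the summed level of 10 cycling-cell markers (bottom), with KO-labelled libraries in red and Het-labelled libraries in blue. Every group's sum is lower in both KO-labelled libraries, while the passenger complex is at 26.6% and 26.1% of the markers under the KO label and 23.4% and 21.97% under the Het label.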

How the data were processed

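The authors deposited whole-number read counts per gene symbol for 4 libraries, with no normalization, and this table was used for every result; a scaled table they also deposited was not used here. Per the submitters' processing notes, STAR, edgeR and the mm10 build were used; no source used here gives the counter, its strand setting or the annotation. The kit does not mark strand. The 2-sided quasi-likelihood test of edgeR 4.0.16 in R 4.3.3 (glmQLFit, glmQLFTest, group as the only term) was run after TMM scaling on genes kept by filterByExpr, with its count minimum at 10 and total minimum at 15, and with Benjamini-Hochberg adjustment over 14649 genes at 0.05. CPM values are those of edgeR's cpm with TMM factors. Intervals of a log2 fold change are the fold change plus and minus the t quantile times the SE, unadjusted. Replicates differed by far more than sampling noise (chi-square per degree of freedom 63.9 for the KO label and 42.9 for the Het label), so none was treated as a copy. Exon lengths and overlaps are from GENCODE M21 (GRCm38); 42 of 42 members matched, 2 through a synonym, and 11 share exon bases with another protein-coding gene. The procedure was tested on simulated data. Values in every library are given for up to 6 members per class with the smallest p and the member nearest 0. Members, classes and lists were chosen with earlier results of these data known. Alternatives used limma 3.58.1 and DESeq2 1.42.0, other scalings, filters and thresholds, a replicate block and each library left out.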

Additional observations from a re-analysis of the deposited data

How the results depend on the processing

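Of the 42 members, 14 were called lower, and this count was 23 with no filter on low counts, 24 with DESeq2, 22 at a threshold of 0.1 and 7 when tested against a fold of 1.5. It was 0 to 25 with each library left out, and 0 members were called higher in any of these. The 14 calls were all shared by the other scalings, both filters, DESeq2, limma-voom and the fits without either KO-labelled library. Of the 31 other kinetochore genes, the 6 called lower became 13 with no filter, 15 with DESeq2 and 11 at a threshold of 0.1, and 0 to 13 with each library left out. Over all genes, 196 lower and 176 higher became 378 and 430 with no filter, 560 and 619 with DESeq2, 75 and 81 against a fold of 1.5, and 350 and 378 at a threshold of 0.1. Requiring a mean of at least 5 CPM gave 266 higher. With each library left out the ranges were 8 to 422 lower and 17 to 404 higher. The log2 fold change of Cenpc1 changed sign, with a range of -0.0970 to 0.0837 over the libraries left out. Deviations of same-numbered libraries correlated at -0.0196 over all genes tested. This value cannot show whether libraries of the same number shared a source, since a pairing may move only some genes. With the replicate block 19 members and 13 other kinetochore genes were called lower and 0 of either higher. Among all 14649 genes 278 were then called lower and 313 higher. The cause of these changes was not tested. With 2 libraries a group, the spread rests on 2 residual degrees of freedom, and members with few counts have wide intervals.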
